A study of Mus musculus with 12 samples.

Results

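The comparison described here is that of het with wild-type (WT) RNA in the neurites of cultured mouse sensory neurons, over every transcript of the neurite table. It used 6 of the 12 libraries of the series, 3 of het neurites and 3 of WT neurites, chosen by their labelled genotype and compartment. The table held 32838 transcripts, of which 32378 carried 1 of 16872 gene names. Het cultures were GAR+/- and WT cultures GAR+/+, and all were on a C57B6 background. Each culture was made from the dorsal root ganglia (DRG) of 1 adult mouse and grown for 3 days on inserts with 1 µm pores, through which neurites extend while the cell bodies (soma) stay above. Per the labels' protocols the ganglia were dissociated whole, so satellite glia, Schwann cells, fibroblasts and vascular cells of the ganglion can be present beside the neurons. No sort was described in the labels. The labels do not say how the GAR allele was made, nor the sex of the mice. The other 6 libraries are soma of the same genotypes and serve here as a second measurement of the same genes.

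Nucleolin is an abundant nucleolar protein that binds RNA and also acts in the cytoplasm, and GAR stands for its domain rich in glycine and arginine. In sensory axons, nucleolin is known to bind the mRNAs of importin β1 (Kpnb1) and of the kinase mTOR and to link them to kinesin motors that carry them away from the cell body. This domain takes part in RNA binding and in contacts with other proteins. The series concerns how RNA localization depends on nucleolin, and the comparison asks which RNAs of the neurite compartment differ when 1 allele is altered.

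The neurite libraries held 14965973, 15815820 and 25915003 counts in WT replicates 1, 2 and 3, and 18793693, 26797243 and 23339223 in het replicates 1, 2 and 3. Levels are given as CPM, counts scaled to a common library size with TMM normalization, in that order of replicates. A count of 0 allows up to 0.112 to 0.2005 CPM, which covers counting error only. Each of the 10 fixed neuron markers (such as Tubb3, Rbfox3 and Snap25) was in the table, and their summed level was 7233 to 9876 CPM in WT and 8771 to 11330 CPM in het. Markers of other ganglion cells were detected as well: the satellite glia markers summed to 802 to 984 CPM in WT and 406 to 683 CPM in het, and the fibroblast markers to 1260 to 3988 and 1025 to 2121 CPM. Of the macrophage markers, Aif1 and Ptprc were not in the table, and of the blood markers only Pf4 was. On the first principal component of the 6 libraries, which held 48.7% of the variance, WT replicates 1 and 3 lay at -35.0 and -22.7 and het replicates 2 and 3 at 25.5 and 24.7. WT replicate 2, at 6.94, and het replicate 1, at 0.449, lay between them in the reverse order of the genotypes, so results are also given without these libraries where that alters them.

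Nucleolin mRNA itself (Ncl, chr1:86344719-86359400 in GRCm38) was 454, 405 and 318 CPM in WT neurites and 423, 376 and 338 CPM in het neurites. The groups overlapped, with a log2 fold change of het over WT of -0.05 ± 0.15 (SE, n = 3 per group, adjusted p = 0.908 in edgeR's quasi-likelihood test). The counts cover the whole gene, so the altered allele cannot be seen in them and the level does not check the labels. Kpnb1 (chr11:97159714-97187881) was 1347, 1096 and 1062 CPM in WT and 1050, 889 and 962 CPM in het. All 3 het libraries were below all 3 WT libraries, by -0.27 ± 0.14 on the log2 scale, and the difference did not pass the test (adjusted p = 0.401). Mtor (chr4:148448611-148557683), at 227, 274 and 253 CPM in WT and 247, 272 and 232 CPM in het, overlapped fully (log2 fold change -0.00 ± 0.13, adjusted p = 0.992).

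At the level of single transcripts, 17 of the 25426 tested (0.0669%) fell in het neurites and 0 rose, at an adjusted p under 0.05. Of these, 1 belongs to a predicted gene, and 15 are described here by name. Their roles fall into a few kinds. Kif4 (a chromosome-associated kinesin), Ckap2l (a spindle protein), Nuf2 (a kinetochore subunit), Ncapd2 (a condensin subunit), Pola1 (the catalytic subunit of DNA polymerase α), Chaf1a (a chromatin assembly factor that loads histones on new DNA), Hist1h3a (a replication-dependent histone H3) and Foxm1 (a transcription factor of mitotic genes) act in DNA replication or mitosis. Myh11 (smooth muscle myosin) and Wnt6 (a secreted Wnt ligand) are known from cells other than neurons. Kank2, Sdc4 (syndecan-4) and Emp2 act in cell adhesion or at the membrane, Enpp1 cleaves extracellular nucleotides, and Mmd2 is a membrane protein of the progestin and adipoQ receptor family. Kif4, Wnt6, Kank2, Ckap2l and Mmd2 follow from the rule for named transcripts, and the other 10 are named, after their values were seen, because their transcripts passed too.

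The Kif4 transcript (ENSMUST00000048962, chrX:100625737-100727214) was 109.6, 102 and 118 CPM in WT neurites and 51.4, 29.5 and 36.5 CPM in het neurites. The groups stood well apart, with a 2.81-fold lower level in het (log2 fold change -1.49 ± 0.18, adjusted p = 0.0145). The Wnt6 transcript (chr1:74771892-74785322) was 24.1, 16.3 and 26.5 CPM in WT and 9.15, 6.09 and 6.80 CPM in het. This was a 3.05-fold lower level (log2 fold change -1.61 ± 0.22, adjusted p = 0.0261). The other 15 share an adjusted p of 0.0442.

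Among the replication and mitosis transcripts, Ckap2l was 54.0, 36.6 and 54.5 CPM in WT and 25.8, 16.8 and 16.7 CPM in het (log2 fold change -1.30 ± 0.20). WT replicate 2 was the low library of its group and still stood above every het library. Chaf1a was 96.3, 103 and 91.3 CPM against 62.1, 40.7 and 45.6 CPM (-0.97 ± 0.16). Pola1 was 186, 167 and 189 CPM against 116, 72.4 and 90.1 CPM (-0.96 ± 0.16). In both, het replicate 1 was the high library of its group. Foxm1 was 26.3, 16.99 and 23.3 CPM against 11.2, 8.60 and 9.49 CPM (-1.19 ± 0.20). Ncapd2 was 141, 89.7 and 125 CPM against 66.6, 53.4 and 60.8 CPM (-0.98 ± 0.17). Nuf2 was low throughout, with 60, 43 and 134 counts in the WT libraries and 23, 25 and 30 in the het libraries (-1.84 ± 0.31). Hist1h3a was 35.2, 38.9 and 49.2 CPM against 20.2, 18.8 and 23.4 CPM (-0.99 ± 0.17), and reads of near-identical histone genes may be split among them by the authors' counting.

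**Figure D1:**
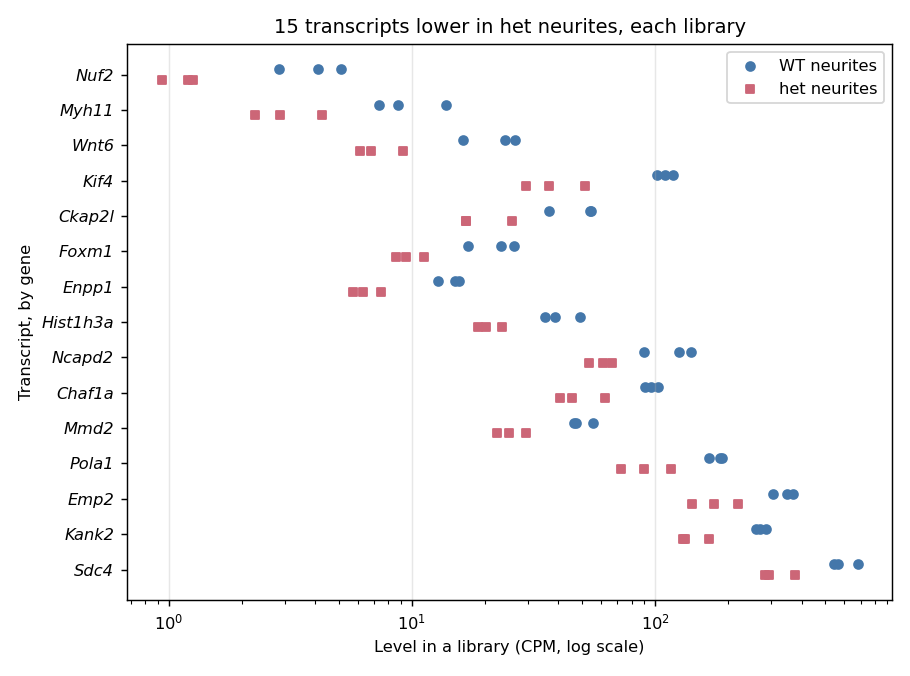
Level of each of the 15 named transcripts that fell in het neurites, in CPM on a log axis. Blue circles are the 3 WT libraries and red squares the 3 het libraries. In each row the 3 het points lie below the 3 WT points, with Kif4 from 29.5 to 51.4 CPM in het and from 102 to 118 CPM in WT.

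Among the others, Kank2, a regulator of focal adhesions, was 269, 286 and 260.1 CPM in WT and 167, 129.7 and 132 CPM in het (-0.93 ± 0.14). Mmd2 was 47.2, 46.6 and 55.8 CPM against 29.5, 22.4 and 25.1 CPM (-0.96 ± 0.15). Both had WT libraries within a narrow range. Sdc4, a cell-surface proteoglycan, was 542, 566 and 681 CPM against 377, 284 and 294 CPM (-0.91 ± 0.15). Emp2 was 305, 368 and 348 CPM against 218, 174 and 141 CPM (-0.94 ± 0.16). Het replicate 1 was again the closest to WT in both. Enpp1 was 15.6, 12.8 and 15.1 CPM against 7.49, 6.32 and 5.71 CPM (-1.16 ± 0.19). Myh11 was 7.34, 8.73 and 13.8 CPM against 4.26, 2.88 and 2.27 CPM (-1.69 ± 0.29). In all 17 transcripts the 3 het libraries lay below the 3 WT libraries. Over all transcripts tested, 9.05% had het libraries wholly below WT and 6.93% wholly above.

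The 17 were chosen as lower in het, so their keeping that direction in every alternative run adds no support. The number called was 0 without WT replicate 3 or without het replicate 3. It was 4 without WT replicate 1 (3 of the 17 among them) and 2 without het replicate 2 (1 of the 17). Without WT replicate 2 or het replicate 1 it was 791 and 409, with all 17 among them.

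Promoters are shown for 4 of these genes whose RefSeq start lies within 23 bases of the start of the transcript that fell, 3 of DNA replication or mitosis and Wnt6. Enpp1, Sdc4 and Emp2 also lie within that distance, hold none of the motifs described below and are not shown. RefSeq start sites (GRCm38.p6) were matched by gene for 12 of the 17. For Kif4 the RefSeq start lies 328 bases from that of the transcript, for Kank2 198, for Ncapd2 115, for Mmd2 48 and for Nuf2 36. The windows of these 5 do not stand for the transcript's own start. The windows below are the 100 bases before the start, 5′ to 3′ on the gene's strand, and capitals mark motifs known from cell cycle promoters, on either strand. The first is CCAAT, the letters of the CCAAT box. The next is TTTGAA, those of the CHR element bound by a repressor of mitotic genes. The last is TTCCCGC, as in sites of the E2F factors. They do not overlap each other in these windows.
Ckap2l (chr2:129297213-129297312, minus strand): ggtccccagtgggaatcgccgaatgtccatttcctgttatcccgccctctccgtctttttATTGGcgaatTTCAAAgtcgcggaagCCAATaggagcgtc
Chaf1a (chr17:56040316-56040415, plus strand): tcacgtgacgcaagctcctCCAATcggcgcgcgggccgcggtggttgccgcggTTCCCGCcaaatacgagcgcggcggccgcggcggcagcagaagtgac
Pola1 (chrX:93632156-93632255, minus strand): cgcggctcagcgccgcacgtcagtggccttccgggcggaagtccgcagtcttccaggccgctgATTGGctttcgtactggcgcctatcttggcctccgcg
Wnt6 (chr1:74771792-74771891, plus strand): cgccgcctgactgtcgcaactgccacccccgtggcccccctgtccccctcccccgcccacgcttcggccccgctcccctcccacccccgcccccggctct
Over the 250 bases before the start, on both strands, CCAAT was found in 6 of the 12 matched promoters, against 33.83% of the 32817 promoters of the table. TTTGAA was found in 2 of 12 against 15.98%, and TTCCCGC in 2 of 12 against 3.815%. Ckap2l has CCAAT and TTTGAA, Chaf1a has CCAAT and TTCCCGC, Pola1 has CCAAT here and TTCCCGC further upstream, and the Wnt6 window holds none of the letters searched. Over the 250 bases, CCAAT was found for Kif4, Ckap2l, Chaf1a, Pola1 and Ncapd2, of replication or mitosis. It was also found for Mmd2, which is not known from the cell cycle. TTTGAA was found for Ckap2l and Ncapd2, and TTCCCGC for Chaf1a and Pola1. Nuf2, whose window does not stand for the transcript's own start, had none of the motifs. Wnt6, Kank2, Enpp1, Sdc4 and Emp2 had none either. Kif4, Ncapd2 and Mmd2, with their more distant starts, are among the 6 with CCAAT, and Ncapd2 is among the 2 with TTTGAA. These are matches of letters, with no measure of binding.

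When counts were summed per gene name, 0 of 15061 genes passed the threshold over the 6 neurite libraries. The smallest adjusted p was 0.0895, shared by 77 genes, of which 71 were lower and 6 higher in het. The genes of the 17 transcripts above were all at this value, and each transcript held 92.48% to 100% of its gene's counts. Kif4 has 1 transcript here, with a log2 fold change of -1.49 in both fits. Its adjusted p was 0.0145 as a transcript and 0.0895 as a gene. Nearly the same counts thus passed when tested per transcript and not when tested per gene. At an unadjusted p under 0.05 there were 1403 genes lower in het (9.32%) and 805 higher (5.34%), so 63.5% of these were lower. The het libraries lay wholly below the WT libraries in 1511 genes (10%) and wholly above in 1356 (9%), and the median log2 fold change of all genes was 0.01. The biological coefficient of variation between replicates was 0.188 in neurites and 0.132 in soma. Other fits of the same counts made calls. With the spread shared over all 12 libraries, edgeR called 444 genes lower (2.78%) and 79 higher (0.494%) of 15990, DESeq2 called 508 lower (4.51%) and 43 higher (0.382%) of 11264, and 377 genes were in both. With the spread shared, 0 genes were called without WT replicate 3, without het replicate 2 or without het replicate 3, 50 without WT replicate 1, 1767 without WT replicate 2 and 1110 without het replicate 1. The shared-spread fit counts soma and neurite libraries as independent, which they may not be. It also pools the smaller spread of soma with that of neurites, so its p-values for neurites may be too small. Below, a gene is said to pass the shared-spread fit where its adjusted p there was under 0.05. Each such call is subject to these limits and to the libraries above.

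Of the genes with the smallest p at the gene level, those lower in het were Kif4, Wnt6, Kank2, Mmd2, Foxm1 and Chaf1a, whose transcripts are given above. Those higher in het included Mpped2, Mt3, Cbr1, Rab33a and Galnt9, with an adjusted p of 0.0895 except Galnt9 (0.0971), and all 5 passed the shared-spread fit (adjusted p = 0.0124 to 0.0372) and DESeq2. Mpped2, a phosphoesterase, was 7.88, 8.41 and 7.98 CPM in WT and 14.2, 13.7 and 14.7 CPM in het, with a log2 fold change of 0.81 ± 0.16. Mt3, a metal-binding metallothionein of the nervous system, was 38.8, 42.3 and 43.9 CPM against 58.9, 65.4 and 77.3 CPM (0.69 ± 0.14). Cbr1, a carbonyl reductase, was 81.4, 83.9 and 80.4 CPM against 113, 123.3 and 126.8 CPM (0.56 ± 0.11). Replicates within each group were close in all 3 genes. Rab33a, a small GTPase of axonal vesicle transport, was 16.8, 22.1 and 21.5 CPM against 32.3, 35.1 and 33.2 CPM (0.73 ± 0.15). Galnt9, a glycosyltransferase of the brain, was 39.1, 54.6 and 48.1 CPM against 73.1, 74.3 and 76.4 CPM (0.66 ± 0.14). The groups did not overlap in any of the 5.

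**Figure D2:**
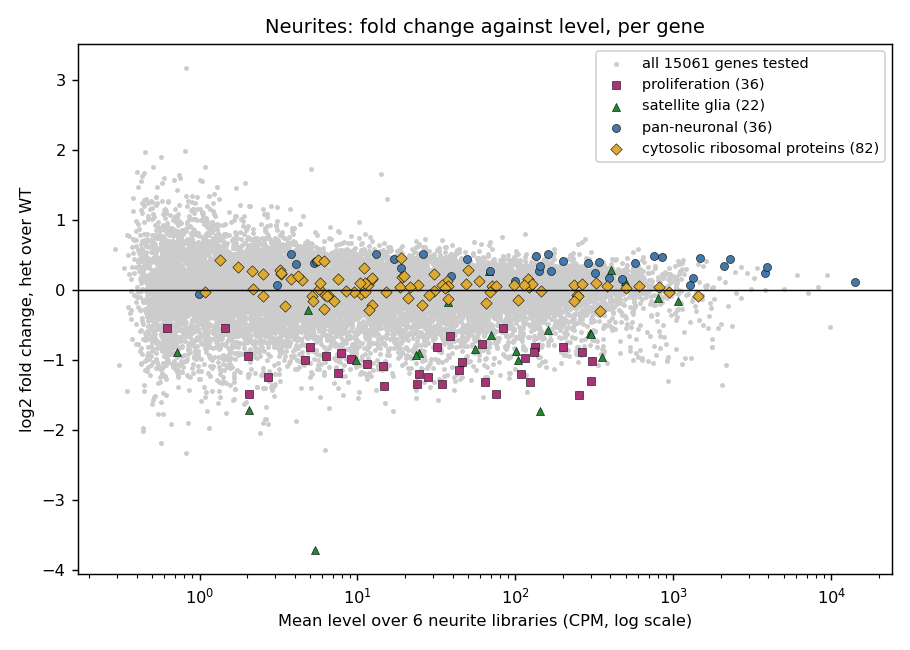
Log2 fold change of het over WT against the mean level in the 6 neurite libraries (CPM, log axis) for each of 15061 genes. Colours mark 4 gene lists. All 36 proliferation genes (squares) lie below 0, and most pan-neuronal genes (circles) lie just above it.

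Of the lists with 10 or more tested members, genes of DNA replication and mitosis had the median farthest from 0. All 36 tested members lay below 0 in het, and their median was -1.01 against 0.01 over all genes, and 31 of 36 were lower at an unadjusted p under 0.05. In the shared-spread fit 15 of 37 passed, all lower. Summed over the list, the level was 4173, 2344 and 3954 CPM in WT and 2225, 1253 and 1529 CPM in het, so WT replicate 2 came close to het replicate 1 without overlap. Kif23, a kinesin of cytokinesis, was 37.2, 21.7 and 43.7 CPM in WT and 16.5, 11.1 and 13.1 CPM in het (-1.34 ± 0.25, adjusted p = 0.0895). The median stayed between -1.28 and -0.88 when any neurite library was left out.

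Replication-dependent histones, whose mRNAs are made during S phase, had a median of -0.42. Of 54 tested, 46 lay below 0, 20 were lower and 1 higher at p under 0.05, and 8 of 55 passed the shared-spread fit, all lower. Hist1h3b was 27.1, 26.9 and 36.5 CPM in WT and 15.7, 16.3 and 18.1 CPM in het (-0.85 ± 0.16, adjusted p = 0.0895). The histone median was -0.12 without WT replicate 3. Of the D cyclins and G1 kinases, 6 of 17 were lower and 1 higher at p under 0.05, with a median of -0.22. Cdkn2c, an inhibitor of the G1 kinases, was 44.4, 29.7 and 38.9 CPM in WT and 20.9, 13.2 and 19.6 CPM in het (-1.08 ± 0.20). Cdk6, a G1 kinase, was 47.6, 30.6 and 39.3 CPM against 27.6, 20.0 and 20.9 CPM (-0.78 ± 0.19). Both passed the shared-spread fit, as did 3 further members, all lower. The list held members on both sides, with 13 of 17 below 0.

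The satellite glia, Schwann cell, fibroblast and vascular lists lay below 0 too, with soma medians of -0.66, -0.26, -0.52 and -0.06, and the macrophage list lay above 0. Adult sensory neurons do not divide, and the cells that can are among these. The satellite glia list, genes of the cells that wrap sensory neuron bodies, had a median of -0.74, with 19 of 22 members below 0 and 12 lower at p under 0.05. Fabp7, a fatty acid binding protein of glia, was 29.9, 28.8 and 37.2 CPM in WT and 19.2, 15.8 and 16.7 CPM in het (-0.90 ± 0.16, adjusted p = 0.0895). Sox10, the transcription factor of the glial lineage, was 394, 342 and 358 CPM against 272, 215 and 227 CPM (-0.62 ± 0.13, adjusted p = 0.0975). The summed level of the glia list was 4840 to 5186 CPM in WT and 3703 to 4353 CPM in het, with no overlap. Gfap, named here because its fold change was the most extreme of the list, rested mostly on WT replicate 1, at 25.4 CPM against 2.36 and 2.47 CPM in the other WT libraries and 0.670 to 0.793 CPM in het (-3.71 ± 1.20).

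Schwann cell and myelin genes had a median of -0.51, with 21 of 24 below 0 and 10 lower at p under 0.05, and the median was -0.29 without WT replicate 3. Egr2, which switches on myelin genes, was 9.18, 10.3 and 10.8 CPM in WT and 5.43, 4.72 and 5.91 CPM in het (-0.92 ± 0.19, adjusted p = 0.0895). The fibroblast and matrix list had a median of -0.68, with 23 of 26 below 0 and 8 lower at p under 0.05, and -0.44 without WT replicate 3 or -0.43 without het replicate 2. Timp3, an inhibitor of matrix proteases, was 1279, 848 and 1050 CPM against 773, 547 and 470 CPM (-0.83 ± 0.21, adjusted p = 0.127). The summed fibroblast level, 6998, 3447 and 5623 CPM in WT and 4224, 2783 and 2626 CPM in het, overlapped between the groups. The endothelial, pericyte and smooth muscle list had a median of -0.56, with 17 of 18 below 0 and 6 lower at p under 0.05. That median was -0.18 without WT replicate 3, and the endothelium markers overlapped between the genotypes, at 67.1 to 164 CPM in WT and 74.6 to 126 CPM in het. Besides Myh11 it held Des, the muscle intermediate filament, at 5.14, 4.20 and 4.01 CPM against 2.06, 1.59 and 2.18 CPM (-1.20 ± 0.26, adjusted p = 0.0975). In the shared-spread fit, 5 of 22 satellite glia, 4 of 24 Schwann, 1 of 27 fibroblast and 3 of 19 vascular genes passed, all lower. The macrophage and leukocyte list went the other way, with 14 of 16 above 0 and a median of 0.38. It had 0 members at p under 0.05. Its median was -0.08 without het replicate 3, 0.24 without WT replicate 1, 0.61 without WT replicate 2 and 0.61 without het replicate 1.

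The medians of the satellite glia, Schwann cell, fibroblast and vascular lists lay below 0, as did the 17 transcripts and the proliferation list. The macrophage median lay above 0. The part of these lists in the results for the transcripts and for proliferation was not tested. In bulk RNA, fewer cells of a type and less RNA per cell cannot be told apart. The genes of the blood list could hardly be read, as only Pf4 was tested. The Y-linked Ddx3y was 204 to 285 CPM in all 6 libraries.

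**Figure D3:**
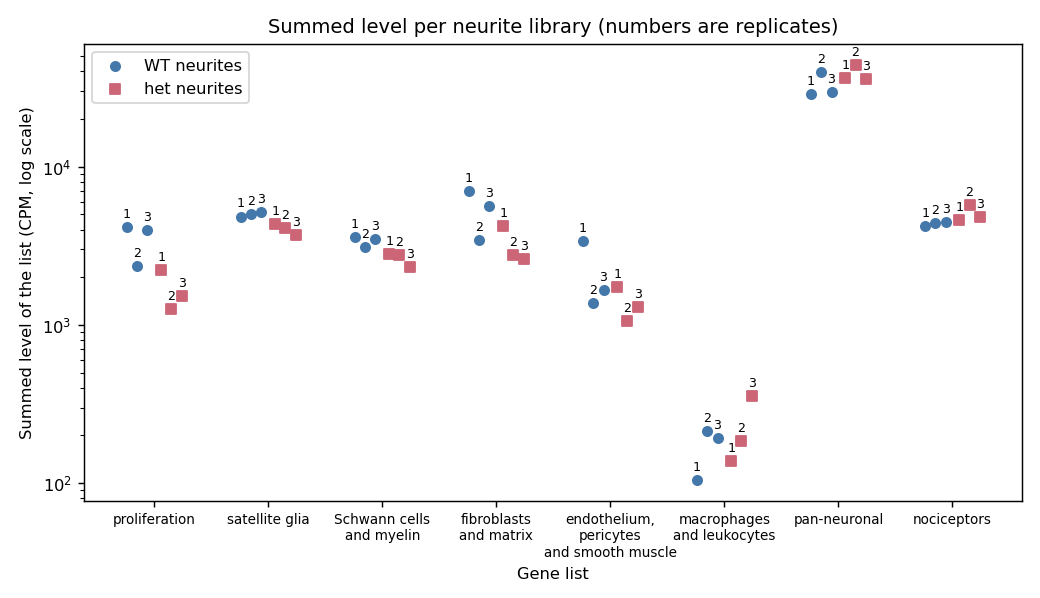
Summed level of 8 gene lists in each neurite library (CPM, log axis). Blue circles are WT, red squares are het, and the number over a point is the replicate. Proliferation, satellite glia and Schwann cell sums, lower in het, and nociceptor sums, higher in het, do not overlap between the genotypes. The fibroblast, vascular, macrophage and pan-neuronal sums do.

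Pan-neuronal genes lay slightly above 0. Of 36 tested, 35 were above 0, with a median log2 fold change of 0.37, and 15 were higher at p under 0.05. The median was 0.24 without WT replicate 1. The shared-spread fit called 3 of 36, all higher. Their summed level was 28960, 39600 and 29490 CPM in WT and 36330, 44050 and 35870 CPM in het, so WT replicate 2 lay among the het libraries. Uchl1, a neuronal deubiquitinase, was 103, 124 and 109.6 CPM in WT and 136, 166 and 169 CPM in het (0.48 ± 0.13, adjusted p = 0.143). Vamp2, the synaptobrevin of synaptic vesicles, was 113, 162 and 124 CPM against 188, 189 and 194 CPM (0.52 ± 0.14, adjusted p = 0.147). The groups did not overlap in either gene. CPM values are relative levels, scaled here between libraries by TMM. A lower level of some genes can raise the rest where TMM does not offset it. The part of this in the small shift of neuronal genes was not tested.

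Genes of nociceptors, the pain-sensing neurons, had a median of 0.21, with 13 of 31 higher at p under 0.05 and 0 lower, and 0.32 without WT replicate 2 or without het replicate 1. Neuropeptides and granins had a median of 0.31, with 10 of 23 higher and 0 lower. Calcb, which encodes a calcitonin gene-related peptide, was 23.3, 26.8 and 28.1 CPM in WT and 33.3, 45.6 and 40.4 CPM in het (0.61 ± 0.15, adjusted p = 0.127). Cartpt, a neuropeptide precursor, was 45.8, 62.1 and 74.4 CPM against 93.4, 95.1 and 122 CPM (0.77 ± 0.18, adjusted p = 0.117). Gal, the galanin precursor, which rises in injured sensory neurons, was 46.1, 58.1 and 66.4 CPM against 86.9, 98.9 and 71.2 CPM (0.59 ± 0.16, adjusted p = 0.151). All 3 genes passed the shared-spread fit, and none overlapped. The neuropeptide median was 0.04 without het replicate 2. Of the genes of large-diameter neurons, 3 of 23 were higher and 2 lower, around a median of 0.13 (0.33 without WT replicate 2, -0.04 without het replicate 2 and 0.32 without het replicate 3), and 0 of 11 sodium channel genes reached an unadjusted p under 0.05.

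Synaptic and dense-core vesicle genes had a median of 0.26, with 8 of 37 higher at p under 0.05 and 0 lower, and 0.41 without WT replicate 2 or 0.16 without het replicate 2. Rab3c, a vesicle GTPase, was 401, 514 and 376 CPM in WT and 581, 608 and 581 CPM in het (0.46 ± 0.14, adjusted p = 0.187). Axonal transport motors and adaptors had a median of 0.18, with 4 of 45 higher and 3 lower, and 0.06 without WT replicate 1, 0.30 without WT replicate 2 or 0.11 without het replicate 2. The lower side held Nde1, a dynein regulator that also serves mitosis, at 7.26, 4.14 and 5.74 CPM against 3.00, 3.06 and 2.43 CPM (-1.01 ± 0.26, adjusted p = 0.128). The other named member was Kif1c, a kinesin, at 17.7, 29.8 and 18.5 CPM against 15.0, 11.6 and 14.1 CPM (-0.70 ± 0.21, adjusted p = 0.178). Nuclear-encoded oxidative phosphorylation genes had a median of 0.18, with 18 of 79 higher and 1 lower, and 0.09 without het replicate 3. Atp5g1, a subunit of ATP synthase whose mRNA is known in axons, was 9.25, 9.46 and 13.2 CPM against 15.3, 16.3 and 18.6 CPM (0.65 ± 0.19, adjusted p = 0.159), and it passed the shared-spread fit. Ndufa2, of complex I, was 66.3, 69.6 and 79.8 CPM against 82.9, 93.5 and 118 CPM (0.45 ± 0.15, adjusted p = 0.215).

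The translation machinery lay close to 0. The 82 cytosolic ribosomal protein genes had a median of 0.06, with 1 higher and 0 lower at p under 0.05, and the 54 translation factors a median of 0.02, with 2 higher and 1 lower. Nucleolar and ribosome biogenesis genes, the list nearest to the known seat of nucleolin, had a median of -0.10, with 2 of 57 lower and 1 higher, and 0.05 without WT replicate 1. Of the small nucleolar and Cajal body RNAs, 0 of 32 reached p under 0.05. Nop58, a core protein of small nucleolar particles, was 212, 143 and 151 CPM in WT and 139, 123.1 and 134 CPM in het (-0.35 ± 0.15, adjusted p = 0.323). These shares lie below the background of 9.32% lower and 5.34% higher.

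**Figure D4:**
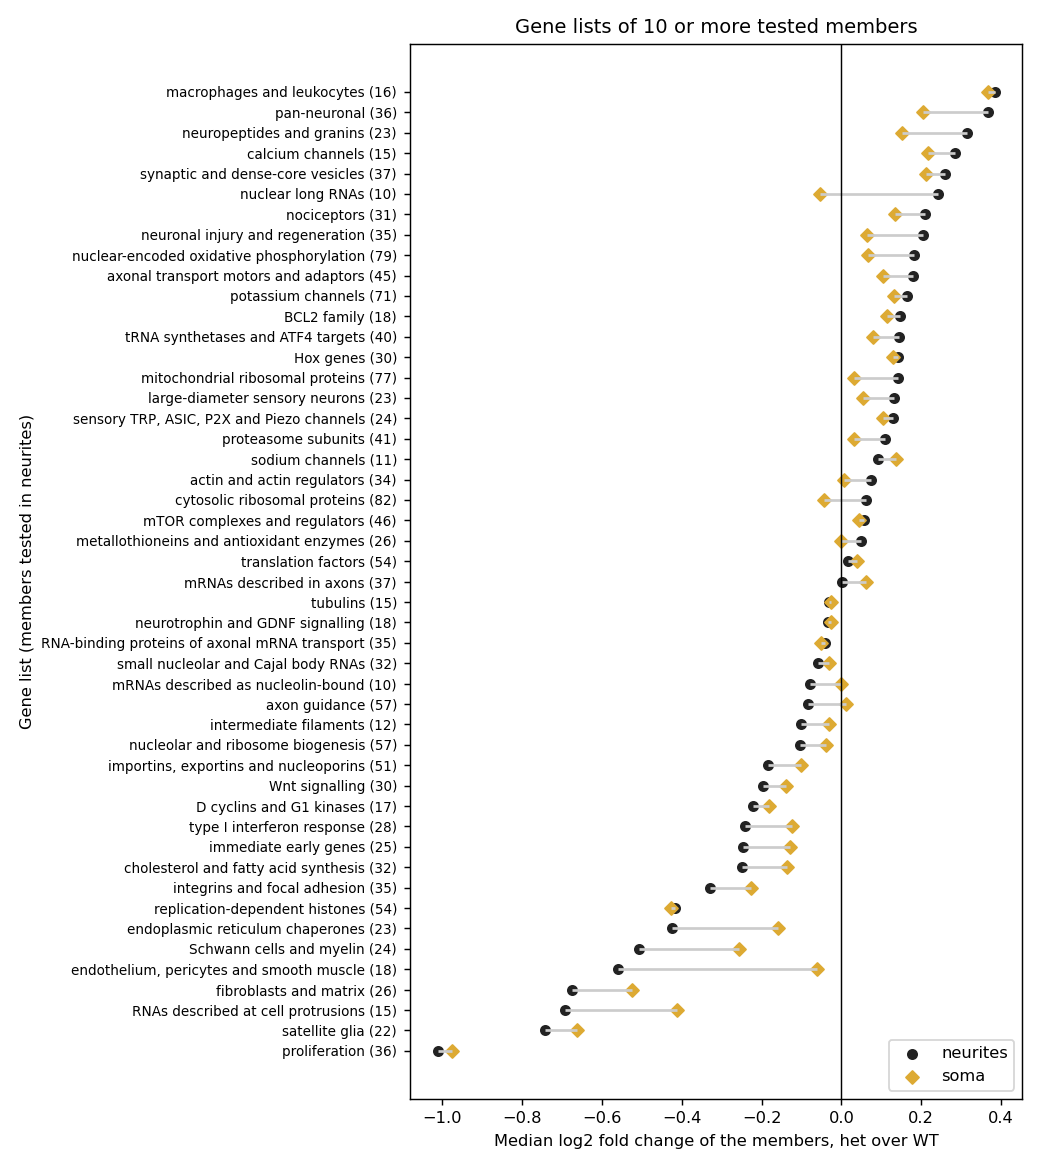
Median log2 fold change of het over WT of the gene lists with 10 or more tested members, in neurites (black circles) and in soma (yellow diamonds); the number of members tested in neurites is in parentheses. The proliferation list is lowest in both compartments, at -1.01 and -0.98, and ribosomal protein genes lie near 0 in both.

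mRNAs described as bound by nucleolin did not stand apart from the rest. Of the 10 members, 7 lay below 0, the median was -0.08, and 1 was lower at p under 0.05. That was Bcl2, whose product holds back cell death and whose mRNA nucleolin is known to stabilize, at 203, 205 and 178 CPM in WT and 169.7, 148 and 149 CPM in het (-0.33 ± 0.12, adjusted p = 0.251). Bcl2 passed the shared-spread fit with an adjusted p of 0.0468. The 37 mRNAs described in axons had a median of 0.00, with 3 lower and 4 higher at p under 0.05. Stmn2, a regulator of growing microtubules, was 1772, 2173 and 1874 CPM in WT and 2484, 2852 and 2613 CPM in het (0.45 ± 0.15, adjusted p = 0.2003). Among 46 genes of the mTOR complexes and their regulators, 2 were lower and 5 higher, around a median of 0.06. Pik3r1, the regulatory subunit of PI3-kinase, was 132, 133 and 131 CPM against 101, 84.5 and 87.1 CPM (-0.54 ± 0.12, adjusted p = 0.105), and it passed the shared-spread fit.

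Importins, exportins and nucleoporins, the family of Kpnb1, had a median of -0.18, with 39 of 51 below 0. At p under 0.05, 4 of 51 were lower and 0 higher, a share no larger than the 9.32% lower of all genes. The het libraries lay wholly below WT in 14 of 51 and wholly above in 0, against 10% and 9% of all genes. The median was -0.12 without WT replicate 1 and -0.11 without het replicate 2. Nup205, a scaffold nucleoporin, was 168, 135 and 148 CPM in WT and 116, 94.4 and 90.6 CPM in het (-0.59 ± 0.14, adjusted p = 0.117). Nup160, of the outer ring of the pore, was 93.6, 66.1 and 90.4 CPM against 61.8, 44.5 and 47.2 CPM (-0.71 ± 0.17, adjusted p = 0.119). Both passed the shared-spread fit, and both also act in dividing cells, where pores are rebuilt after mitosis.

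RNAs described at cell protrusions, first known from migrating fibroblasts, had a median of -0.69, with 8 of 15 lower at p under 0.05 and 0 higher. The median was -0.38 without WT replicate 2. The shared-spread fit called 5 of 15, all lower. Kank2 is given above. Ddr2, a collagen receptor, was 166, 228 and 165 CPM in WT and 125, 107 and 92.6 CPM in het (-0.78 ± 0.16, adjusted p = 0.0895). The summed level of the list was 5127, 7756 and 5037 CPM in WT and 4249, 4150 and 3719 CPM in het, so here WT replicate 2 was the high library. Of RNA-binding proteins of axonal mRNA transport, 2 of 35 were lower and 2 higher, with a median of -0.04. Ybx1, a cold-shock domain protein, was 104, 105 and 90.2 CPM against 70.3, 63.0 and 65.0 CPM (-0.59 ± 0.12, adjusted p = 0.0895) and passed the shared-spread fit.

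Adhesion, guidance and Wnt genes were lower at p under 0.05 in larger shares than the 9.32% of all genes. Of integrin and focal adhesion genes, 11 of 35 were lower and 1 higher, with a median of -0.33. Itgb8, the β8 integrin, was 2214, 1862 and 2675 CPM in WT and 1693, 1141 and 1007 CPM in het (-0.81 ± 0.21, adjusted p = 0.135). Tns3, a tensin of adhesion sites, was 1230, 1050 and 945 CPM against 781, 631 and 623 CPM (-0.66 ± 0.15, adjusted p = 0.115). Of Wnt signalling genes, 9 of 30 were lower and 1 higher, with a median of -0.20. Besides Wnt6, the list named Sfrp5, a secreted Wnt antagonist, at 5.89, 6.24 and 9.90 CPM against 3.22, 2.64 and 2.60 CPM (-1.40 ± 0.25, adjusted p = 0.0895). The Wnt median was -0.37 without het replicate 1 and -0.10 without WT replicate 3. Of axon guidance genes, 13 of 57 were lower and 2 higher, with a median of -0.08, which was -0.28 without het replicate 1 and 0.05 without het replicate 3. Ephb3, an ephrin receptor, was 9.05, 8.67 and 9.87 CPM against 5.69, 5.21 and 5.03 CPM (-0.80 ± 0.18, adjusted p = 0.115), and Sema3b, a secreted semaphorin, was 9.46, 9.92 and 14.0 CPM against 7.33, 5.06 and 3.73 CPM (-1.06 ± 0.26, adjusted p = 0.121). Ligands, receptors and antagonists were thus all among those on the lower side.

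Endoplasmic reticulum chaperones had a median of -0.42, with 7 of 23 lower at p under 0.05 and 0 higher. Creld2, a secreted stress protein, was 75.5, 40.8 and 60.0 CPM in WT and 42.0, 34.5 and 32.9 CPM in het (-0.69 ± 0.20, adjusted p = 0.177), and its groups overlapped. Edem1, of the disposal of misfolded glycoproteins, was 177, 150.4 and 155 CPM against 138, 113 and 109.4 CPM (-0.42 ± 0.13, adjusted p = 0.183). The list's median was -0.22 without WT replicate 1. Of immediate early genes, 7 of 25 were lower and 1 higher, with a median of -0.25. Nr4a1, an orphan nuclear receptor induced by activity, was 52.8, 50.2 and 57.4 CPM against 35.6, 28.5 and 27.7 CPM (-0.81 ± 0.14, adjusted p = 0.0895). Cholesterol and fatty acid synthesis genes had a median of -0.25, with 7 of 32 lower and 0 higher. Scd2, a fatty acid desaturase, was 2291, 2806 and 3217 CPM against 2281, 1969 and 1577 CPM (-0.51 ± 0.18, adjusted p = 0.238), with het replicate 1 just under the lowest WT library.

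A few channel genes lay on the lower side although the median of their list lay above 0. Cacng4, an auxiliary calcium channel subunit, was 19.2, 19.4 and 16.5 CPM in WT and 10.9, 6.27 and 8.17 CPM in het (-1.13 ± 0.21, adjusted p = 0.0895), whereas calcium channels as a list had a median of 0.28 (0.48 without WT replicate 2, 0.16 without het replicate 2). Kcnn4, a calcium-activated potassium channel, was 109.3, 82.6 and 125 CPM against 73.4, 45.1 and 37.8 CPM (-1.02 ± 0.25, adjusted p = 0.144), in a list with a median of 0.16 (0.28 without WT replicate 2, 0.08 without het replicate 2, 0.25 without het replicate 3). P2rx7, an ATP-gated channel of glia and immune cells, was 68.7, 45.5 and 64.1 CPM against 41.8, 29.5 and 26.5 CPM (-0.87 ± 0.20, adjusted p = 0.117). Each passed the shared-spread fit. In the neurotrophin list, Sorcs1, a sorting receptor, was 104, 60.8 and 105 CPM against 58.8, 36.2 and 32.3 CPM (-1.09 ± 0.28, adjusted p = 0.159). Of the 18 members tested, 5 were lower and 2 higher at p under 0.05, and 3 of 18 passed the shared-spread fit, all lower. The list's median was -0.03, and it ran from -0.22 without het replicate 2 to 0.00 without het replicate 3.

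The soma libraries, which the neurite test did not use, gave the same direction for all 17 transcripts. In soma they were lower in het by -1.22 to -0.65 on the log2 scale, and 12 of 17 passed the test there (439 of 27661 soma transcripts fell, 1.59%, and 19 rose, 0.0687%). At the gene level 388 of 15726 soma genes passed, 376 lower (2.39%) and 12 higher (0.0763%). Of the 71 genes that were lower at the smallest adjusted p in neurites, 47 fell in soma. Of the 1403 neurite genes lower at an unadjusted p under 0.05, 347 (24.7%) fell in soma, and they were 92.3% of the 376 soma genes. The labels do not tie neurite and soma libraries to the same culture, and how far they share cultures is not given in the labels, so the soma values may not be independent of those in neurites. On the higher side, 1 of the 6 genes at the smallest adjusted p and 7 of the 805 with p under 0.05 rose in soma. Only 12 genes rose in soma at all, and these 7 are among them.

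Whether a genotype difference in neurites differed from that in soma was tested as an interaction over all 12 libraries. No gene passed: 0 of 15990, with a smallest adjusted p of 0.9998. At an unadjusted p under 0.05 there were 105 genes relatively lower (0.657%) and 97 higher (0.607%) in het neurites, and DESeq2 called 0 as well. These shares are small, and the test counts soma and neurite libraries as independent. Where they share cultures, it may be too strict. A fit with a block for each replicate number within a genotype also called 0. For Kif4 the log2 fold change was -1.49 in neurites and -1.10 in soma, and for Mmd2 it was -0.95 and -0.93. For Ncl, Kpnb1 and Mtor the interaction was -0.28, -0.13 and -0.07, each with an adjusted p of 0.9998.

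**Figure D5:**
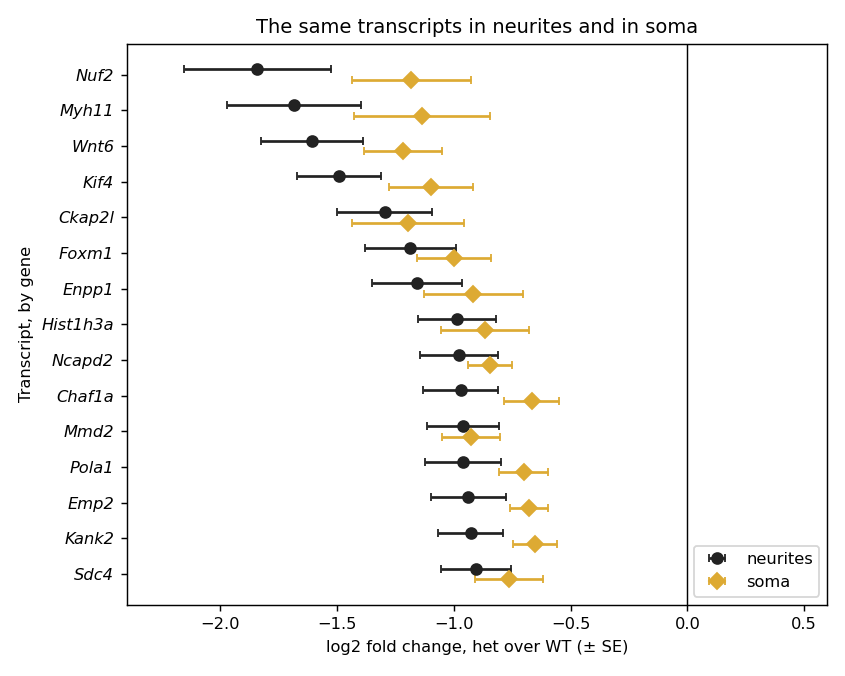
Log2 fold change of het over WT with its SE for the 15 named transcripts, in neurites (black circles) and in soma (yellow diamonds). All points lie below 0, from -1.84 to -0.91 in neurites and from -1.22 to -0.65 in soma.

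Transcripts in the neurite table alone were too low to carry the comparison. Of the 972 transcripts and 237 gene names not found in the soma table, 17 transcripts and 5 genes passed the filter on low counts, and 0 passed the test. The gene named by the rule, Lrrc16a, an actin capping regulator, had 0.548, 0.263 and 0.501 CPM in WT and 1.16, 0.264 and 0 CPM in het, with no usable difference (0.02 ± 1.00, adjusted p = 0.995). With no filter, 24 of the 972 transcripts were lower and 10 higher at an unadjusted p under 0.05, where the shares over all transcripts were 6.32% and 3.35%, and 0 passed the adjusted threshold. Their median total was 29 counts over the 6 libraries. A non-coding transcript of Phkb (ENSMUST00000159882, chr8:85841008-85922416), singled out after its values were seen, had 0 counts in all 3 WT libraries and 10, 9 and 12 counts in the het libraries. The table holds only transcripts with at least 5 counts in at least 3 libraries, so this transcript is listed through its het libraries alone, and no fold change is given.

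Transcript length went with direction. The transcripts lower in het at an unadjusted p under 0.05 had a median length of 3131 bases and those higher of 2084 bases, against 2161 bases for all tested, while the 17 that fell had a median of 4629 bases. Their GC contents were close, at 49.75%, 50.94%, 49.94% and 51.16%. The median level was 12.5 CPM for the lower, 10.6 CPM for the higher and 2.55 CPM for all transcripts. The part of length and level in the direction was not tested.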

How the data were processed

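Per the labels' protocols, the libraries were stranded and made from total RNA after removal of ribosomal RNA. CASAVA 1.8.2, edgeR and mm10 (GRCm38) are named in the submitters' processing notes. Neither aligner nor counter is given in the sources used here. Per the file headers, the values that the authors deposited for each library are raw counts per Ensembl transcript. All transcripts of the neurite table had at least 5 counts in at least 3 libraries. Rows without a gene name (0.595% to 0.694% of counts) stayed out of gene sums. The other 24 per-sample columns and the authors' fold changes were not used.

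Counts were summed per gene name, filtered with filterByExpr, which removed 1811 genes, scaled by TMM and tested with edgeR 4.0.16 in R 4.3.3 (robust quasi-likelihood, 2-sided, Benjamini-Hochberg over all features, threshold 0.05), over the 6 neurite libraries without pairing. Transcripts were tested likewise. DESeq2 1.42.0, limma voom 3.58.1, a spread shared by 12 libraries, other filters and left-out libraries were alternatives. SE is the log2 fold change over the root of the F statistic. Scripts were tested on simulated data. The design states 3 independent biological repeats, and p-values measure the spread between them. Positions are from GENCODE M21, in which 97.65% of transcripts were found.

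Members and gene lists were chosen with earlier results of these data known. Named by rule were Ncl, Kpnb1 and Mtor, up to 6 genes per direction with the smallest p and at least 10 CPM in the higher group where few passed, at most 2 members of a list where none passed, up to 5 transcripts past the threshold per direction with at least 5 CPM, and up to 3 genes per direction in the neurite table alone. Predicted genes were counted but not named, and some items the rule picked are not reported here.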

Additional observations from a re-analysis of the deposited data

How the results depend on the processing

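The gene count in neurites, 0 in the 6-library edgeR test, was 870 with the replicate block, 523 with the spread shared by 12 libraries, 551 in DESeq2 and 1 in limma voom, and it was 0 with DESeq2 size factors, no filter or a filter at 10 CPM. Leaving out a neurite library gave 0 to 699 genes. The transcript count of 17 was 45 with DESeq2 size factors, 856 with the replicate block, 519 in DESeq2, and, in alternatives added after seeing the data, 74 with no filter and 80 in limma voom. It was 0 to 791 without a library. All 17 were among those called in the former 5 settings. The soma count of 388 was 1316 with the replicate block and 85 to 562 without a library. The shared-spread count of 523 was 0 to 1767 without a library (251 to 416 where that was a soma library), and 0 without WT replicate 1 and het replicate 2 together, all added after seeing the data. The interaction count stayed at 0 in DESeq2, with the block and without any library.

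The neurite libraries were not treated as paired by replicate number, by a rule that asked for all 3 correlations over 0.1. Deviations from the group means correlated at 0.27, 0.37 and -0.07 across genes between same-numbered libraries. Between libraries of different numbers they correlated at -0.40 to 0.20. Whether the numbers mark pairs is thus not settled.

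Of 107 genes picked by the rule, 104 kept their direction in every alternative. Apart from Ncl, Kpnb1 and Mtor they were picked by their p in these same counts, so the kept directions add little support. Without a neurite library, Ncl ranged from -0.18 to 0.066, Mtor from -0.073 to 0.063 and Lrrc16a from -1.66 to 0.63. Ncl turned to 0.066 without WT replicate 1 and 0.03 without het replicate 3, and Mtor to 0.063 without WT replicate 2 and 0.05 without het replicate 3. Lrrc16a turned to -0.43 with the replicate block, -1.34 in limma voom, -0.21 without WT replicate 2 and -1.66 without het replicate 1. The medians of 17 of the 50 gene lists changed sign in at least 1 alternative, among them 3 of the 22 past 0.2 in size: the macrophage list, nuclear long RNAs and the type I interferon list. The causes were not tested. Of the 972 transcripts in the neurite table alone, 955 were too low to be tested.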
